A study of Homo sapiens with 16 samples.

Results

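The chains that bind the 4 cytokines of an inflammatory mix were followed by bulk RNA-seq in Ccd18-Co fibroblasts, an established line derived from human colon. The 10 genes were chosen by name, as the receptor chains for TNF, IL-1β, IL-17A and OSM and their close partners, out of 40663 gene symbols in the table. They are TNFRSF1A, TNFRSF1B, IL1R1, IL1RAP, IL1RL1, IL17RA, IL17RC, OSMR, IL6ST and LIFR. Earlier results of these data were known when they were chosen. All 10 were in the table, and 9 of them averaged 100 or more normalized counts, which are estimated counts divided by the size factor of the library. The remaining gene, IL1RL1, had between 0 and 8.31 normalized counts in a library. There were 16 libraries in 4 groups of 4, with 14418942 to 19476420 estimated counts each.

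All groups were the same line at up to passage 20, with no genetic change stated. Unstimulated cells received DMSO without the mix. The other groups received 3 pulses, each of 72 h with IL-1β at 0.1 ng/ml and the other cytokines (TNF, OSM, IL-17A) at 10 ng/ml and then 96 h of recovery, followed by 1 week of rest. These cells were then held for 5 days in DMSO (vehicle), in 250 nM belinostat, an inhibitor of histone deacetylases, or in 10 µM GSK-J4, an inhibitor of the demethylases that act on lysine 27 of histone H3. Each was diluted 1:5000. These doses are those of the labels. For IL-1β the study's own text gives the same concentration in a legend of this experiment and a lower one in its methods. For both compounds a legend of an assay of this kind gives the same concentration, higher than the label for belinostat and lower for GSK-J4. A supplementary legend gives that belinostat concentration for every assay where nothing else is stated. Which of them applies to these libraries is not settled here. RNA was taken 2 weeks after the compound, so the chains were measured in the absence of added cytokine and added compound. Replicate numbers do not say which cultures were grown apart, and the p-values below measure the spread between these libraries, which may be technical. The study's legends for this design give 3 replicates per group in bulk RNA-seq, called biological in places. Here 4 libraries per group were used. All 10 fibroblast markers were expressed in every group. All 6 epithelial markers had means under 10 normalized counts, and the T cell gene CD3E and the B cell gene MS4A1 were at 0 in the 16 libraries. Of 8 immune markers 6 had means under 10, and CD14 and CD68 had 129 and 278. KIT, a mast cell marker, had a mean of 3399.95 normalized counts, and the other 3 mast cell markers were under 10.

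A cytokine of this kind acts only where its receptor chains stand on the cell surface, and most of these receptors are assembled from a chain that binds the ligand and a partner that completes the signal. TNFRSF1A and TNFRSF1B are the receptors for TNF, of which the first carries a death domain and is expressed widely, and the second is more restricted. IL1R1 binds IL-1 and recruits IL1RAP, which is also the partner of IL1RL1, the receptor for IL-33. IL17RA and IL17RC form the receptor for IL-17A. OSMR pairs with IL6ST, the gp130 chain shared by the IL-6 family, to bind OSM. LIFR pairs with the same chain for LIF and, in human cells, for OSM as well. In the inflamed gut these receptors are a route by which cytokines from immune cells reach the stroma.

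The 250 bases upstream of the annotated transcription start were read from the RefSeq promoter table for GRCh38.p14, which held 9 of the 10 chains at 15 starts. These starts can differ from the ends of the GENCODE gene coordinates given for each chain below. The windows of TNFRSF1A, OSMR, IL6ST and IL1RAP reach in part into those gene coordinates. They are shown for 5 chains with a single start each, 4 that were lower after belinostat and IL1RAP, whose value went the other way. Each is written 5′ to 3′ along the gene, and capitals mark matches to the GC box, GGGCGG, on either strand. The windows are chr12:6342077-6342326 (minus strand) for TNFRSF1A, chr1:12166741-12166990 (plus) for TNFRSF1B, chr5:38845762-38846011 (plus) for OSMR, chr5:55994964-55995213 (minus) for IL6ST and chr3:190513835-190514084 (plus) for IL1RAP.
TNFRSF1A: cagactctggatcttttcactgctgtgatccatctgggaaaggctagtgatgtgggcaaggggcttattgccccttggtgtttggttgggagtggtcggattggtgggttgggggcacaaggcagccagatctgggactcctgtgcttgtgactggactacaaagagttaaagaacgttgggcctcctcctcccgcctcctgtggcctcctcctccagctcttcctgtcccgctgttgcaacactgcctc
TNFRSF1B: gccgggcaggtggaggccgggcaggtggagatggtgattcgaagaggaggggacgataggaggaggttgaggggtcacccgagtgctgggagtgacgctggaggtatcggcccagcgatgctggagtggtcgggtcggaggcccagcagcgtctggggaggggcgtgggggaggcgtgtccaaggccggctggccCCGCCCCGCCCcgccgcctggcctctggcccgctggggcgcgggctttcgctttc
OSMR: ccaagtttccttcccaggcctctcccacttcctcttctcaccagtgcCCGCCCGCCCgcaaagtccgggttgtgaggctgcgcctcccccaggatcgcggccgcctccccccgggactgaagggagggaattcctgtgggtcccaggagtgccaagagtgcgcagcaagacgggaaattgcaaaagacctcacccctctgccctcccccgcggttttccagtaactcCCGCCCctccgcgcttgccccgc
IL6ST: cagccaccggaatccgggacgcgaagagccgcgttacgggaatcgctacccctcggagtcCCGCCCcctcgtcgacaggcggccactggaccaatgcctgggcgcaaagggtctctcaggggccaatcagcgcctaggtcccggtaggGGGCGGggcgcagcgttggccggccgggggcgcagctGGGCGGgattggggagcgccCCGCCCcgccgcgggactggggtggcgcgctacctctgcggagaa
IL1RAP: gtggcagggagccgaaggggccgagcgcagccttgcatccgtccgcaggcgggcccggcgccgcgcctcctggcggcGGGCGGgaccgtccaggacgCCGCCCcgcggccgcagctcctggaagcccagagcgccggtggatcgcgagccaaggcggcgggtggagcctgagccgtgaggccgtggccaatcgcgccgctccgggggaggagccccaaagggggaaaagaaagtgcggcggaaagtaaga

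The 5 windows differed in base composition. TNFRSF1A had 4 CpG dinucleotides, an observed to expected CpG ratio of 0.199 and no GC box. TNFRSF1B had 22 CpG and 2 GC boxes, which overlap by a base, OSMR had 17 CpG and 3 GC boxes, of which 2 overlap, and IL6ST had 31 CpG and 4 GC boxes. IL1RAP resembled the last of these, with 33 CpG and 2 GC boxes. Over the 35116 promoters of the table, 42.6% held a GC box and the median CpG ratio was 0.558. Letters of AP-1 (TGANTCA, in 6.57% of all promoters), of a STAT element (TTCNNNGAA, 6.57%), of the cyclic AMP response element (TGACGTCA, 1.65%) and of the NF-kB consensus (5.21%) were searched on both strands, and none was found in these 5 windows. Among the other starts, 1 of the 4 of IL1R1 and 2 of the 3 of LIFR held the STAT letters, and 1 of the 2 of IL1RL1 held those of AP-1. IL17RC, which was not called after belinostat, also has a single start and is not shown. Its window had 6 CpG, an observed to expected CpG ratio of 0.230 and 1 GC box.

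The order of the chains by level was similar in every group. Levels between genes are compared as normalized counts per kilobase of exon, over all 16 libraries. IL6ST was highest with a mean of 2000.2, followed by TNFRSF1A with 1465, OSMR with 881 and IL1R1 with 589. IL17RC (144), LIFR (99.9) and IL17RA (96.0) formed a middle range, and TNFRSF1B (45.1) and IL1RAP (15.7) were low. The IL-33 receptor chain IL1RL1 stood at 0.446. LIFR and IL17RA overlapped across libraries, and every other pair of neighbours in this order was separate. With the length of the longest coding transcript in place of all exons the order over the 16 libraries was kept, but IL6ST and TNFRSF1A (2672 and 2590 per kilobase), OSMR and IL1R1, and TNFRSF1B and IL1RAP then overlapped as well, and within groups TNFRSF1A led IL6ST in unstimulated cells and IL1RAP led TNFRSF1B after belinostat. The gene that binds IL-1 was thus present at a far higher level per kilobase than its partner IL1RAP, while OSMR stood below its partner IL6ST.

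**Figure D1:**
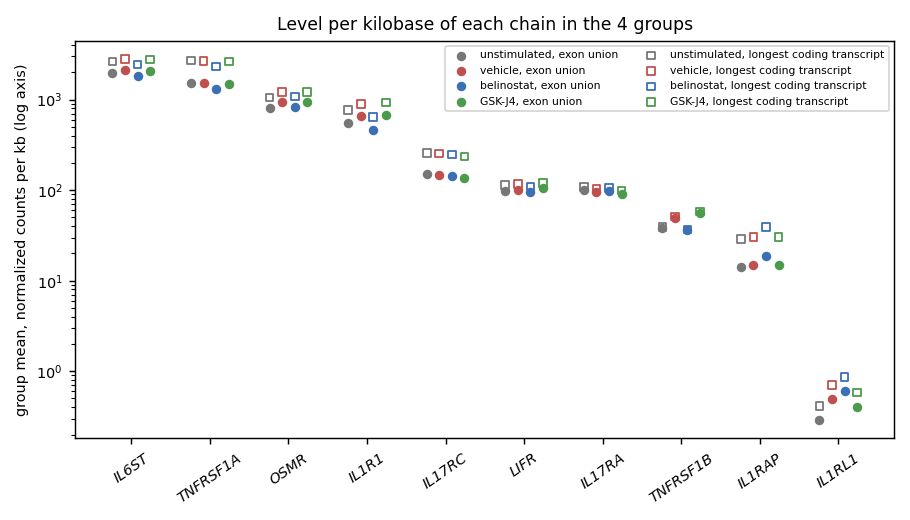
Mean level of each receptor chain in the 4 groups, in normalized counts per kilobase on a log axis, with the length of all exons (filled circles) or of the longest coding transcript (open squares). IL6ST and TNFRSF1A lead in every group, at means of 2000.2 and 1465 per kilobase of exon over all libraries, and IL1RL1 lies lowest at 0.446.

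Across the study the pulses raised 1 chain, belinostat lowered 5, and GSK-J4 moved none past the threshold against vehicle. After the pulses OSMR was higher than in unstimulated cells. After belinostat TNFRSF1A, TNFRSF1B, IL1R1, OSMR and IL6ST were lower than in vehicle cells, so that chains for TNF, IL-1 and OSM were among them and both IL-17 receptor chains were not. These counts are of 9 chains tested, and they stand beside 1.1% of all tested genes called higher after the pulses and 3.13% called lower after belinostat. Among genes with a mean of at least 100 normalized counts, as these 9 chains have, belinostat lowered 3.76%. Because the chains were chosen with earlier results of these data known, these shares are a description and no independent test. The threshold was an adjusted p under 0.05 in DESeq2's Wald test, adjusted over all genes tested. With edgeR's quasi-likelihood test 0 chains were called after the pulses and 3 after belinostat (IL1R1, TNFRSF1A and TNFRSF1B). After belinostat against vehicle, TNFRSF1A and IL1R1 kept their calls in all 14 other settings, OSMR in 12, TNFRSF1B in 10 and IL6ST in 7. IL1RL1 was too low for an adjusted p in these comparisons. The vehicle libraries serve in each of the 3 comparisons, so a vehicle library that lies high or low moves all of them. In bulk RNA, fewer cells that express a chain and less RNA of it per cell cannot be told apart.

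**Figure D2:**
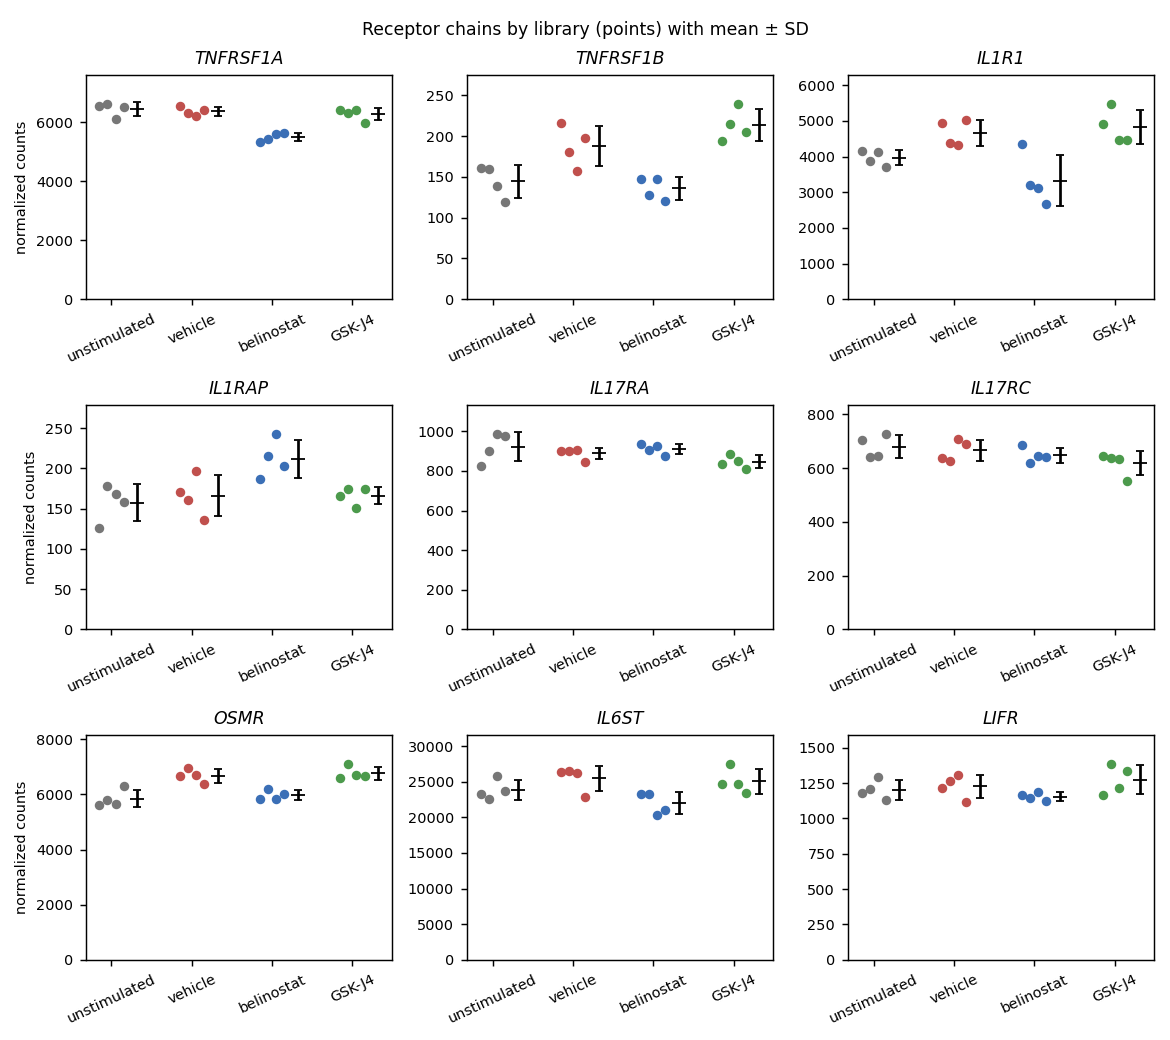
Normalized counts of 9 receptor chains in each of the 16 libraries (points, in replicate order from left to right) with the mean and SD of each group of 4, on axes that start at 0. TNFRSF1A lies between 5345 and 5655 after belinostat and at 5986 or above in every other library, and OSMR lies between 6369 and 6973 in vehicle cells against 5634 to 6309 in unstimulated cells.

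Both TNF receptors were lower after belinostat than in vehicle cells, and of these TNFRSF1A alone also passed against unstimulated cells. TNFRSF1A (chromosome 12, 6328757 to 6342114, minus strand) had 6576, 6633, 6124 and 6525 normalized counts in unstimulated cells and 6555, 6309, 6204 and 6441 in vehicle cells. It had 5345, 5456, 5611 and 5655 after belinostat and 6409, 6310.3, 6432 and 5986 after GSK-J4. The 4 belinostat libraries were the lowest of the 16, with no overlap with any other group. Means were 6464 ± 231 (SD, n = 4) unstimulated, 6377 ± 153 vehicle, 5517 ± 143 belinostat and 6284 ± 206 GSK-J4. Against vehicle the difference was -13.5% (95% interval, -17.8% to -8.98%), a log2 change of -0.21 ± 0.04 (SE) with an adjusted p of 2.6e-06. It was also lower after belinostat than in unstimulated cells, at -14.7% (adjusted p = 1e-07), and than after GSK-J4, at -12.2% (adjusted p = 1.8e-05). The pulses themselves gave a change of -1.34% (interval, -6.19% to 3.77%, adjusted p = 0.984).

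TNFRSF1B (chromosome 1, 12166991 to 12209228, plus strand), the less abundant TNF receptor, had 161, 160.2, 138 and 119 normalized counts in unstimulated cells and 216, 180.1, 157 and 198 in vehicle cells. It had 147, 128, 148 and 120.4 after belinostat and 194, 215, 239.8 and 205 after GSK-J4. Vehicle and belinostat did not overlap, and vehicle and unstimulated overlapped through vehicle replicate 15. Belinostat against vehicle gave -27.6% (log2 change -0.47 ± 0.13, adjusted p = 0.0114). That call rested on several libraries, since adjusted p was 0.0994 without vehicle replicate 13, 0.0595 without vehicle replicate 16, 0.0522 without belinostat replicate 18 and 0.0804 without belinostat replicate 20. After GSK-J4 it was 47.7% above unstimulated cells (log2 change 0.56 ± 0.13, adjusted p = 9e-04), with no overlap, and belinostat against GSK-J4 gave -36.3% (log2 change -0.65 ± 0.13, adjusted p = 3.1e-05). Vehicle cells stood 29.9% above unstimulated cells (interval, 8.70% to 55.3%), which did not pass after adjustment (adjusted p = 0.144). Belinostat and unstimulated libraries overlapped, with a difference of -5.95% (interval, -21.9% to 13.3%, adjusted p = 0.792).

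The IL-1 receptor chains went opposite ways after belinostat, and only the fall of IL1R1 passed the test against vehicle. IL1R1 (chromosome 2, 102064544 to 102179874, plus strand) had 4157, 3888, 4131 and 3705 normalized counts in unstimulated cells and 4944, 4373, 4321 and 5019.8 in vehicle cells. It had 4345, 3189, 3105 and 2659 after belinostat and 4924, 5477, 4461 and 4471 after GSK-J4. Belinostat replicate 17 lay within the vehicle range and the other 3 below every library of the other groups. Belinostat against vehicle gave -28.7% (interval, -39.0% to -16.6%), a log2 change of -0.49 ± 0.12 with an adjusted p of 9.2e-04, and -0.64 without belinostat replicate 17. Against GSK-J4 the log2 change was -0.54 ± 0.12 (adjusted p = 7.4e-05). Against unstimulated cells it was -0.26 ± 0.12 (adjusted p = 0.158), which became -0.41 and passed (adjusted p = 5.6e-05) without the same library.

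Vehicle libraries all had more IL1R1 than unstimulated libraries, with a difference of 17.5% (interval, 0.501% to 37.3%, adjusted p = 0.527). When only the 8 libraries of that comparison were fitted, adjusted p was 0.0442. The partner chain IL1RAP (chromosome 3, 190514051 to 190659750, plus strand) had 125, 178, 168 and 158 normalized counts in unstimulated cells, 171, 161, 197 and 136 in vehicle cells, 187, 215, 243 and 204 after belinostat and 166, 174, 151 and 174 after GSK-J4. The belinostat libraries lay above all unstimulated and GSK-J4 libraries and overlapped those of vehicle through vehicle replicate 15. Against unstimulated cells IL1RAP was 34.6% higher after belinostat (log2 change 0.43 ± 0.13, adjusted p = 0.0196). This call was lost without unstimulated replicate 1 (adjusted p = 0.121), unstimulated replicate 4 (0.0536), belinostat replicate 18 (0.0597) or belinostat replicate 19 (0.108), and with only the 8 libraries fitted (0.0634). Against vehicle the value was 27.5% higher (interval, 6.35% to 52.9%, adjusted p = 0.106), and without vehicle replicate 15 it passed (adjusted p = 0.0329). Against GSK-J4 it was 27.4% higher (adjusted p = 0.0686), and it passed without belinostat replicate 17 (adjusted p = 0.0348).

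IL1RL1 (chromosome 2, 102311502 to 102352037, plus strand) was near the floor throughout. Its means were 1.65 ± 0.831 normalized counts unstimulated, 2.81 ± 1.29 vehicle, 3.47 ± 3.29 belinostat and 2.32 ± 1.78 GSK-J4, and no difference was detectable at this depth. It shares 95 bases of exon with its neighbour IL18R1, which had 71.1 to 182 normalized counts, so even these few counts are uncertain. IL33, the ligand of this chain, was also low, with means of 4.65 to 24.3 normalized counts in the 4 groups.

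The ratio of IL1R1 to IL1RAP within a library put both changes together. It was 33, 21.8, 24.5 and 23.4 in unstimulated cells and 28.8, 27.1, 21.9 and 36.9 in vehicle cells. It was 23.2, 14.8, 12.8 and 13.0 after belinostat and 29.6, 31.4, 29.4 and 25.6 after GSK-J4. The belinostat libraries lay below all GSK-J4 libraries, and belinostat replicate 17 lay within the vehicle range. The log2 ratio differed by -0.87 ± 0.25 (SE) between belinostat and vehicle cells (two-sided exact permutation p = 0.0571). Against GSK-J4 the difference was -0.90 ± 0.21 (exact permutation p = 0.0286, the smallest that 4 against 4 libraries allow). In all, 28 tests of 7 ratios in 4 comparisons were run, and no ratio passed after adjustment (smallest adjusted p = 0.267).

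**Figure D3:**
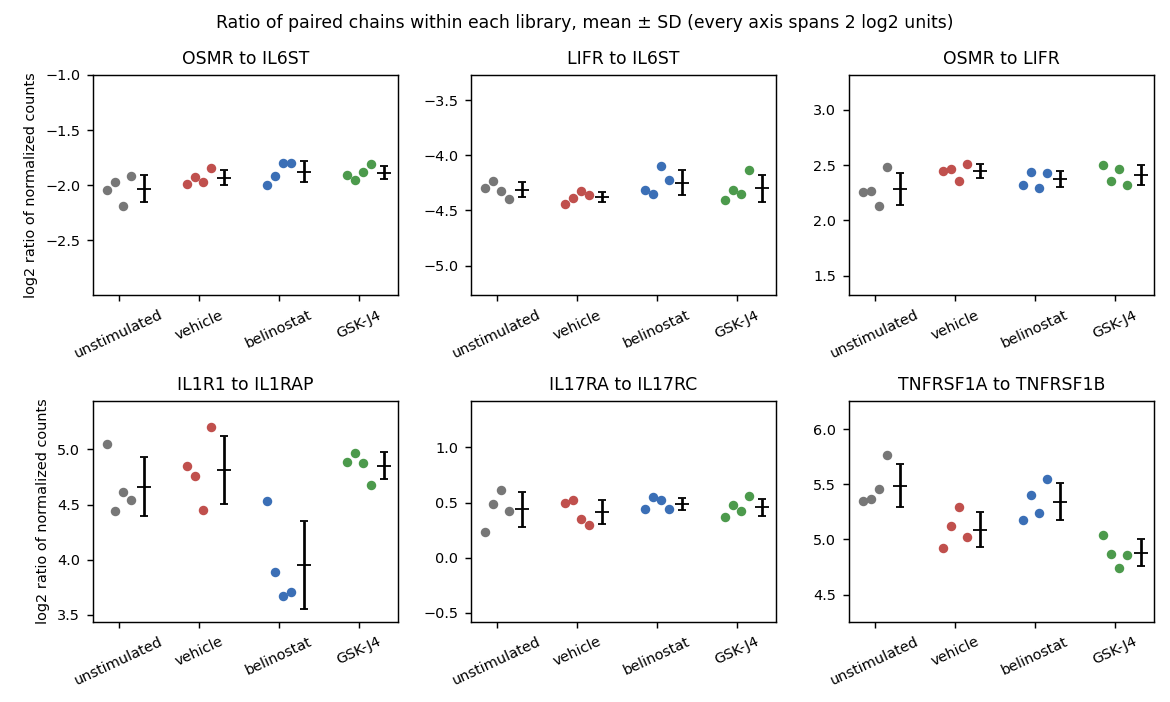
Log2 ratio of normalized counts of paired chains within each library (points) with the mean and SD of each group of 4, where every panel spans 2 log2 units. IL1R1 to IL1RAP has means of 4.82 in vehicle cells, 3.95 after belinostat and 4.85 after GSK-J4, while IL17RA to IL17RC stays between 0.418 and 0.490.

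The ratio of TNFRSF1A to TNFRSF1B was 40.7, 41.3, 44.1 and 54.6 in unstimulated cells and 30.3, 34.9, 39.3 and 32.4 in vehicle cells. The groups did not overlap, with a log2 difference of -0.40 ± 0.13 between vehicle and unstimulated cells (exact permutation p = 0.0286, adjusted p = 0.267). It was 36.2, 42.4, 37.8 and 46.8 after belinostat and 32.9, 29.3, 26.8 and 29.1 after GSK-J4. Those groups were also separate, by 0.46 ± 0.10 on the log2 scale (exact permutation p = 0.0286, adjusted p = 0.267).

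The IL-17 receptor chains passed the test in none of the 6 comparisons made between the groups. IL17RA (chromosome 22, 17084954 to 17115693, plus strand), which several cytokines of the IL-17 family share, had means of 923 ± 74.5 normalized counts unstimulated, 889 ± 27.9 vehicle, 909.6 ± 25.6 belinostat and 846 ± 32.3 GSK-J4. Its change after belinostat against vehicle was 2.35% (interval, -5.83% to 11.2%, adjusted p = 0.888). IL17RC (chromosome 3, 9917074 to 9933630, plus strand) had means of 679.7 ± 42.2, 666 ± 39.6, 648 ± 28.5 and 617 ± 44.9 in the same order. Its change after belinostat was -2.65% (interval, -11.6% to 7.25%, adjusted p = 0.888). The change of OSMR after belinostat, -10.5%, lies within the interval of IL17RC and outside that of IL17RA. The value nearest to a call was IL17RA after GSK-J4 against unstimulated cells, at -8.38% (adjusted p = 0.294), which passed without unstimulated replicate 1 (adjusted p = 0.0416). A readthrough gene shares 2107 bases of exon with IL17RC on the same strand, and its transcripts could take counts from it.

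Of the chains that bind OSM, OSMR passed the test after the pulses, and IL6ST and LIFR did not (adjusted p = 0.823 and 0.987). OSMR (chromosome 5, 38845858 to 38945596, plus strand), the chain particular to OSM and IL-31, had 5634, 5787, 5658 and 6309 normalized counts in unstimulated cells and 6665, 6973, 6703 and 6369 in vehicle cells. It had 5842, 6203, 5851 and 6023 after belinostat and 6602, 7098, 6701 and 6662 after GSK-J4. Every vehicle and GSK-J4 library lay above every unstimulated and belinostat library. The rise after the pulses was 14.2% (interval, 7.48% to 21.3%), a log2 change of 0.19 ± 0.04 with an adjusted p of 0.0025, and edgeR's quasi-likelihood test gave an adjusted p of 0.0657. Belinostat against vehicle gave -10.5% (interval, -15.7% to -4.85%, log2 change -0.16 ± 0.04, adjusted p = 0.0093), a call that was lost in edgeR (adjusted p = 0.0679) and without vehicle replicate 14 (adjusted p = 0.0704). Belinostat and unstimulated cells differed by 2.26% (interval, -3.79% to 8.69%, adjusted p = 0.764), and GSK-J4 cells stood 15.7% above unstimulated cells (adjusted p = 1.7e-04). RICTOR, on the opposite strand, shares 229 bases of exon with OSMR, and strand was not stated for these libraries. RICTOR had 846 to 1081 normalized counts and passed the test in none of the 6 comparisons.

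IL6ST (chromosome 5, 55935095 to 55995022, minus strand) had 23287, 22629, 25869 and 23771 normalized counts in unstimulated cells and 26455, 26485, 26223 and 22834 in vehicle cells. It had 23300.4, 23351, 20407 and 21002 after belinostat and 24754, 27479.6, 24736 and 23369 after GSK-J4. Vehicle replicate 16 stood below the other vehicle libraries and within the belinostat range. Belinostat against vehicle gave -13.7% (interval, -21.3% to -5.34%, log2 change -0.21 ± 0.07, adjusted p = 0.0322), and this call was kept in the fewest alternatives of the 5. Adjusted p was 0.105 in edgeR, 0.0538 with only the 8 libraries fitted, and 0.142, 0.137, 0.112, 0.142 and 0.143 without vehicle replicates 13, 14 and 15 and belinostat replicates 19 and 20. The call against GSK-J4 (log2 change -0.19 ± 0.07, adjusted p = 0.0464) was lost in 9 of 14 alternatives. Belinostat and unstimulated cells differed by -7.85% (interval, -16.0% to 1.04%, adjusted p = 0.317). An antisense transcript shares 797 bases of exon with IL6ST, and a processed copy of IL6ST, IL6STP1, had 73.4 to 108 normalized counts and passed the test in none of the 6 comparisons. LIFR (chromosome 5, 38474668 to 38608354, minus strand) had means of 1203 ± 68.4, 1227 ± 82.7, 1155 ± 30.9 and 1274 ± 102 normalized counts in unstimulated, vehicle, belinostat and GSK-J4 cells. Its change after belinostat was -5.80% (interval, -14.1% to 3.28%, adjusted p = 0.628). LIFR-AS1 on the opposite strand shares 629 bases of exon with LIFR and had 18.3 to 39.5 normalized counts. The ratio of OSMR to IL6ST was -1.93 ± 0.06 (SD) in vehicle cells and -1.88 ± 0.09 after belinostat on the log2 scale, a difference of 0.05 ± 0.06 (SE).

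**Figure D4:**
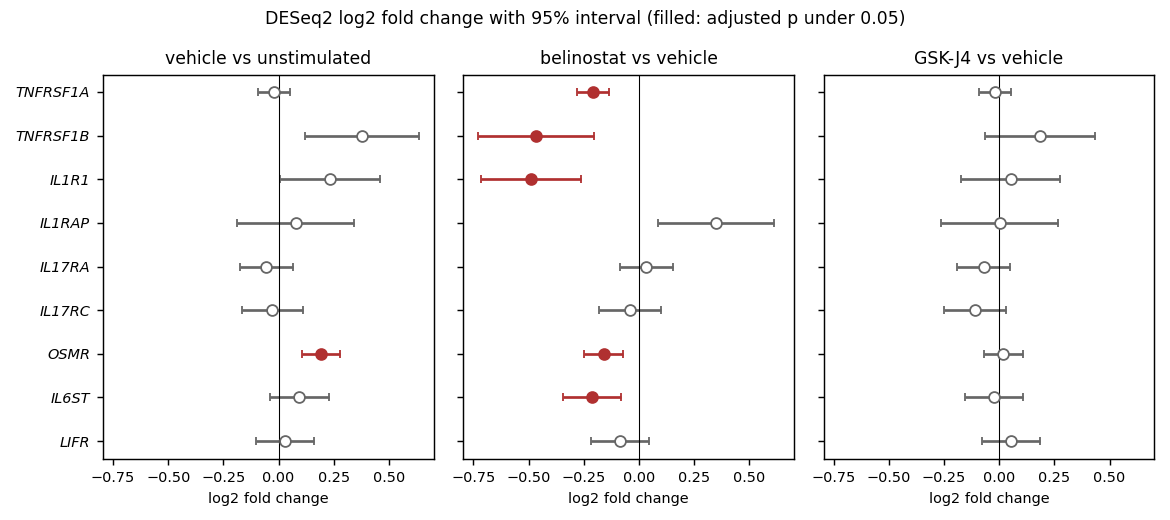
DESeq2 log2 fold change of 9 receptor chains with its 95% interval in 3 comparisons, filled where the adjusted p was under 0.05. The pulses have OSMR as the filled point (0.19), belinostat has 5 filled points from -0.16 to -0.49, and GSK-J4 has none.

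After GSK-J4 none of the 9 chains passed against vehicle, none had an unadjusted p under 0.05, and edgeR called none, where 1.92% of all genes were called. The changes ran from -7.31% for IL17RC to 13.7% for TNFRSF1B. The intervals were narrow for TNFRSF1A (-6.32% to 3.67%) and OSMR (-4.63% to 7.65%), and wide for TNFRSF1B (-4.42% to 35.2%), IL1RAP (-16.8% to 20.4%) and IL1R1 (-11.4% to 21.1%). Against unstimulated cells 2 of 10 chains tested were higher, TNFRSF1B and OSMR, beside 3.18% of all genes. The compounds differed from each other in 5 of 9 chains, all lower after belinostat, beside 6.01% of all genes. These were TNFRSF1A, TNFRSF1B, IL1R1, OSMR and IL6ST again, and the comparison shares its belinostat libraries with that against vehicle. The labelled doses of the compounds differed, at 250 nM and 10 µM, where a legend of the study gives the same concentration for both. Libraries of vehicle and unstimulated cells did not overlap in 2 of 9 chains, IL1R1 and OSMR, beside 6.93% of all genes. Of the 9 chains tested, 3 did not overlap between belinostat and vehicle (TNFRSF1A, TNFRSF1B and OSMR), beside 11.4% of all genes, and 6 did not overlap between belinostat and GSK-J4, beside 17% of all genes. Belinostat against unstimulated cells gave 1 chain lower and 1 higher, TNFRSF1A and IL1RAP, beside 4.77% and 5.51% of all genes.

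The level of smooth muscle markers differed between the same libraries. The summed level of DES, MYH11, CNN1 and ACTG2 was 6933 to 11549 normalized counts in unstimulated cells, 8528 to 9631 in vehicle cells, 4866 to 7132 after belinostat and 13975 to 14302 after GSK-J4, with DES itself at 0 to 3.24. The part of this shift in the receptor levels was not tested. The belinostat libraries had 14418942 to 18256366 estimated counts and the vehicle libraries 18396657 to 18776237, and the part of depth was not tested either.

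Other genes of the same routes were read from lists of ligands, signalling proteins, shedding proteins and related receptors. These lists and that of known targets were also chosen with earlier results of these data known. Of all genes tested, 1.1% were called higher after the pulses, 3.12% higher and 3.13% lower after belinostat, and 1.1% higher and 0.818% lower after GSK-J4 against vehicle. Belinostat against GSK-J4 gave 6.18% higher and 6.01% lower, and GSK-J4 against unstimulated cells 3.18% higher and 2.37% lower. Ligands of the mix were nearly absent in these cells 2 weeks after compound treatment. TNF was at 0 in all 16 libraries, OSM had at most 1.05 normalized counts in a library, and IL1B had group means of 1.42 to 9.20. IL17A was not in the table. No ligand passed after the pulses, after belinostat or after GSK-J4 against vehicle, of 9, 7 and 5 tested. LIF, which signals through LIFR and IL6ST, had means of 55.5 ± 13.6 normalized counts unstimulated, 71.6 ± 20.8 vehicle, 43.3 ± 19.7 belinostat and 119 ± 28.7 GSK-J4. It was lower after belinostat than after GSK-J4 (log2 change -1.45 ± 0.30, adjusted p = 2.8e-05), and higher after GSK-J4 than in unstimulated cells (1.10 ± 0.29, adjusted p = 0.0051), as was IL1B at its low level (2.69 ± 0.85, adjusted p = 0.0316), which was too low to be tested in edgeR.

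Downstream of the IL-1 receptor, IRAK3, a kinase-like protein that restrains signalling, was the 1 gene of 10 tested that rose after the pulses. It had 77.2, 84.1, 71.0 and 77.1 normalized counts in unstimulated cells and 186, 186, 185 and 182 in vehicle cells. It had 171, 172, 173 and 184 after belinostat and 159.7, 167, 138 and 196 after GSK-J4, so that all pulsed libraries lay above all unstimulated ones. The log2 change was 1.26 ± 0.13 after the pulses (adjusted p = 2.1e-20), 1.18 ± 0.13 in belinostat cells against unstimulated cells and 1.10 ± 0.13 in GSK-J4 cells against the same. No gene of this list passed in either compound against vehicle. IRAK1, a kinase of the same receptor complex, was lower after GSK-J4 than in unstimulated cells (log2 change -0.23 ± 0.08, adjusted p = 0.0425), and edgeR did not call it (adjusted p = 0.0610).

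In the OSM receptor route, 2 of 15 genes tested fell after belinostat and 1 rose after GSK-J4. SOCS1, a feedback inhibitor of JAK kinases, had 130.4, 119.8, 150.0 and 159 normalized counts in vehicle cells, 56.3, 73.3, 77.7 and 90.3 after belinostat and 197, 316, 286 and 192 after GSK-J4. The 3 groups did not overlap. The log2 change against vehicle was -0.91 ± 0.19 for belinostat (adjusted p = 1.2e-04) and 0.83 ± 0.18 for GSK-J4 (adjusted p = 6.5e-04). SOCS3, which binds the gp130 chain, fell by 0.26 ± 0.08 on the log2 scale after belinostat (adjusted p = 0.0186) and was lower there than after GSK-J4 too (-0.21 ± 0.08, adjusted p = 0.0481), though not in edgeR (adjusted p = 0.0641). SOCS1 had 117 to 152 normalized counts in unstimulated cells, and no gene of this list passed after the pulses. PTPN11, a phosphatase recruited by gp130, was higher than in unstimulated cells after belinostat (0.12 ± 0.03, adjusted p = 0.006) and after GSK-J4 (0.10 ± 0.03, adjusted p = 0.0282), and edgeR called neither (adjusted p = 0.0653 and 0.154).

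Of 20 genes tested of TNF receptor signalling, belinostat lowered 1 against vehicle, IKBKB, a kinase of the NF-kB pathway, from 1542 ± 71.5 to 1272 ± 65.1 normalized counts (log2 change -0.28 ± 0.06, adjusted p = 1.2e-04). No gene of this list passed after the pulses or after GSK-J4 against vehicle. Between the compounds TRAF5, an adaptor, and IKBKB were lower after belinostat (-0.29 ± 0.08 and -0.22 ± 0.06) and CYLD, a deubiquitinase that limits NF-kB signalling, was higher (0.19 ± 0.05). These 3 genes also passed in belinostat against unstimulated cells, in the same directions, and BIRC3, a ubiquitin ligase, was higher after GSK-J4 than in unstimulated cells (1.44 ± 0.44, means 7.91 and 21.5). For IL-17 receptor signalling, belinostat lowered 1 of 7 genes tested against vehicle, the transcription factor gene CEBPD (-0.23 ± 0.07, adjusted p = 0.0403), which edgeR did not call (adjusted p = 0.0826) and which was lower than in unstimulated cells as well (-0.31 ± 0.07). TRAF3IP2, the adaptor that binds the IL-17 receptor, was lower after belinostat than after GSK-J4 (-0.46 ± 0.12, adjusted p = 0.0012).

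Genes that govern release of receptors from the cell surface moved in both directions. ADAM17, the protease that sheds TNF receptors, had 927, 932, 998 and 904 normalized counts in vehicle cells and 1234, 1082, 1036 and 1084 after belinostat, with no overlap (log2 change 0.24 ± 0.07, adjusted p = 0.011). RHBDF1, a partner of ADAM17, and TIMP3, its inhibitor, were lower (-0.20 ± 0.07, adjusted p = 0.0411, and -0.19 ± 0.06, adjusted p = 0.0371), and edgeR called neither. For ADAM17, RHBDF1 and TIMP3 belinostat replicate 17 lay furthest of its group from the vehicle libraries, and calls without it were not compared. RHBDF2, another partner of ADAM17, had 72.4, 65.1, 78.1 and 46.9 normalized counts in unstimulated cells and 128, 89.1, 101 and 118 in vehicle cells (log2 change 0.73 ± 0.18, adjusted p = 0.0049). So 1 of 6 genes of this list was higher after the pulses, 1 was higher and 2 were lower after belinostat, and none passed after GSK-J4. Against unstimulated cells RHBDF2 was also higher after belinostat (0.51 ± 0.18) and GSK-J4 (0.81 ± 0.18), and ADAM17, RHBDF1 and TIMP3 passed after belinostat in the directions given, of which edgeR did not call RHBDF2 after belinostat (adjusted p = 0.0675) or TIMP3 (0.0546). Between the compounds ADAM17 was higher (0.34 ± 0.07) and TIMP3 lower (-0.19 ± 0.06) after belinostat, the latter not called by edgeR (adjusted p = 0.0589).

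Receptors for cytokines outside the mix and other members of the receptor families give the range in which the 10 chains stand. Of 15 receptors for other cytokines tested, belinostat lowered 3 against vehicle, beside 5 of 9 chains for the mix. They were TGFBR2 and TGFBR3, which bind TGF-β (-0.43 ± 0.08 and -0.41 ± 0.09), and IL4R, a chain for IL-4 and IL-13 (-0.38 ± 0.08). The median log2 change was -0.06 in that list, -0.16 over the 9 chains and 0.0029 over all genes tested. GSK-J4 lowered IL7R (-1.0 ± 0.30, from 43.7 ± 4.50 to 21.8 ± 8.12 normalized counts) and IL15RA (-0.28 ± 0.07) of 14 tested, and edgeR called IL15RA alone. No gene of this list passed after the pulses. Between the compounds TGFBR3, IL4R and TGFBR2 were lower after belinostat (-0.68 ± 0.09, -0.44 ± 0.08 and -0.39 ± 0.08) and 3 were higher, among them the leptin receptor LEPR (0.24 ± 0.08). Against unstimulated cells 5 passed after belinostat, led by TGFBR3, IL4R, IL13RA1 and LEPR with log2 changes of -0.40, -0.33, 0.29 and 0.29, and TGFBR3 passed after GSK-J4 with 0.28, though not in edgeR (adjusted p = 0.0517).

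Other TNF receptor superfamily members fell after belinostat in 2 of 15 tested, TNFRSF19 (from 1612 ± 61.0 to 1088 ± 184 normalized counts, log2 change -0.57 ± 0.10) and FAS, the death receptor for FAS ligand (-0.31 ± 0.07). TNFRSF11B, which encodes the decoy receptor osteoprotegerin, was higher after the pulses (0.27 ± 0.08, adjusted p = 0.037) and higher again after GSK-J4 against vehicle (0.28 ± 0.08, adjusted p = 0.0245), and edgeR called neither. All 3 were lower after belinostat than after GSK-J4 (-0.82 ± 0.10, -0.32 ± 0.07 and -0.23 ± 0.08), and edgeR did not call TNFRSF11B there (adjusted p = 0.0549). Against unstimulated cells CD40 was higher at low level in belinostat and in GSK-J4 cells (1.75 ± 0.50 and 1.65 ± 0.50, from a mean of 4.92), as was EDA2R after belinostat (0.39 ± 0.10). In those comparisons TNFRSF11B was higher after both compounds (0.31 ± 0.08 and 0.55 ± 0.08), TNFRSF19 was lower after belinostat (-0.54 ± 0.10), and TNFRSF10C and TNFRSF10A, receptors for TRAIL, were higher after GSK-J4 (1.07 ± 0.28 and 0.60 ± 0.18). IL17RD, of the IL-17 receptor family, was higher after GSK-J4 than in vehicle cells (0.52 ± 0.15, adjusted p = 0.0233, not called by edgeR) and lower after belinostat than after GSK-J4 (-0.53 ± 0.15). IL6R, the IL-6 binding chain, was lower than in unstimulated cells after belinostat (-0.21 ± 0.06) and after GSK-J4 (-0.26 ± 0.06). None of the other chains of the IL-1 receptor family passed in any of the 6 comparisons, with 2 to 5 of 7 tested.

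**Figure D5:**
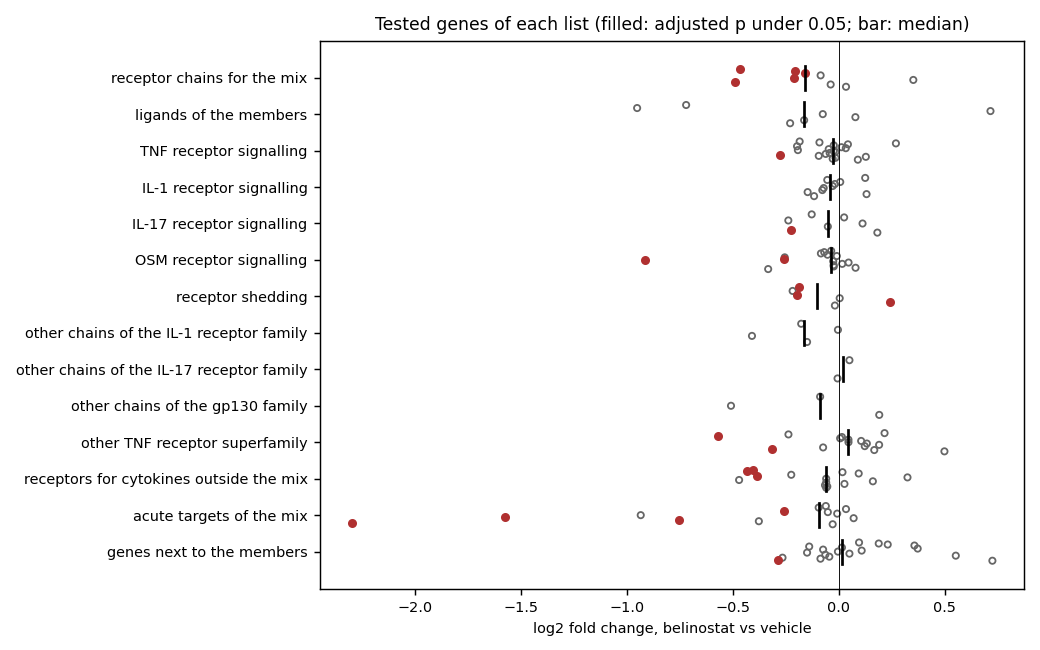
DESeq2 log2 fold change of belinostat against vehicle for each tested gene of the receptor chains and of 13 other lists, filled where the adjusted p was under 0.05, with the median of each list as a bar. The chains have 5 filled points below 0 and a median of -0.16, and the receptors for cytokines outside the mix have 3 filled points and a median of -0.06.

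Known targets of the mix give the state of the cells in which the receptors were read. Of 14 tested, 5 were higher after the pulses, led by the chemokines CXCL5 (2.93 ± 0.30) and CXCL8 (2.36 ± 0.22) and the matrix proteases MMP3 (1.60 ± 0.36) and MMP1 (1.45 ± 0.31). After belinostat 4 of 13 were lower than in vehicle cells, the chemokine CCL2 (-2.29 ± 0.15), MMP1 (-1.58 ± 0.31), CXCL8 (-0.75 ± 0.21) and SOCS3, and none passed after GSK-J4. Between the compounds 5 were lower after belinostat, led by CCL2, MMP3, MMP1 and CXCL8 with log2 changes of -2.16, -1.81, -1.66 and -0.65, of which edgeR did not call CXCL8 (adjusted p = 0.0551). Against unstimulated cells CXCL5, CXCL8 and TNFAIP3, an inhibitor of NF-kB signalling, stayed higher after belinostat (2.56, 1.60 and 0.57) and CCL2 was lower (-2.16), while 6 were higher after GSK-J4, led by CXCL5, MMP3, CXCL8 and MMP1 (3.20, 2.48, 2.25 and 1.53). The receptor changes were small beside the largest of these, with 0.65 the largest among the called log2 changes of the 10 chains in any of the 6 comparisons. Smaller called changes of the targets, such as TNFAIP3 (0.57) and CXCL8 between the compounds (-0.65), lay within that size.

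Few of the genes beside the chains on the chromosome passed the test. They include neighbours of chains that were not called, such as IL17RC, and whether neighbours moved with their own chain was not tested. Of 19 neighbours within 100 kb tested, belinostat lowered 1 against vehicle, CD9, which lies 90486 bases from TNFRSF1A and had 7203 ± 365 normalized counts in vehicle cells and 5906 ± 289 after belinostat (-0.29 ± 0.06, adjusted p = 7e-05). CD9, a membrane protein of the tetraspanin family, was also higher after GSK-J4 (0.25 ± 0.06, adjusted p = 0.0038), lower after belinostat than after GSK-J4 (-0.53 ± 0.06), and different from unstimulated cells after both (-0.34 ± 0.06 and 0.19 ± 0.06). Both of its higher values after GSK-J4 were not called by edgeR (adjusted p = 0.0641 against vehicle and 0.0726 against unstimulated cells). PRRT3, which lies 5820 bases from IL17RC, was higher after belinostat than after GSK-J4 (0.39 ± 0.13). None of the neighbours passed after the pulses.

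The genes whose levels followed each called chain most closely were found among 11741 genes with a mean of at least 50 normalized counts, as Pearson's r of variance-stabilised values over the 16 libraries, which share their groups. TNFRSF1A was followed by the zinc transporter gene SLC39A13 (r = 0.959), CLDN23 (0.948) and CDR2 (0.940). TNFRSF1B was followed by ATP6AP2 (0.899), EMP1 (0.879) and KREMEN1 (0.879). IL1R1 was followed by the hexokinase gene HK2 (0.941), ACSL4 (0.930) and FAIM2 (0.929), OSMR by HYCC1 (0.942), SFMBT2 (0.908) and the basement membrane gene NID2 (0.889), and IL6ST by ELMO2 (0.852) and KLF13 (0.841). Among the chains themselves the highest value was that of TNFRSF1B and IL1R1 (r = 0.784) and the lowest that of TNFRSF1A and IL1RAP (r = -0.728). These are descriptions over libraries of 4 groups and carry no test.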

How the data were processed

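Bulk RNA-seq of 16 Ccd18-Co libraries was used, in 4 groups of 4 taken from the labels. The deposited columns name the unstimulated samples as none rather than DMSO, and the replicate number matched them to their titles. Per the labels, libraries were made with a NEBNext Ultra II RNA kit, whose strandedness was not stated, and sequenced on a NextSeq500. The study's methods for bulk RNA name kits for RNA isolation, and for library preparation they name service providers and no kit. The submitters' processing notes name FastQC 0.11.9, MultiQC 1.14 and kallisto 0.48.0. The authors deposited estimated counts per gene symbol, not scaled to library size, of which 28.0% had decimals, and these were rounded here. How transcripts were summed to symbols was not given in the sources used here. Depth was 14418942 to 19476420 estimated counts a library, and replicate spread covers counting error at these levels.

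DESeq2 1.42.0 (R 4.3.3) was run on all genes and all 16 libraries with a term for group alone, size factors by the median of ratios and no prior filter. Calls were made where the adjusted p (Benjamini-Hochberg) was under 0.05, and intervals are 95% Wald intervals. Alternatives were edgeR 4.0.16 (quasi-likelihood, TMM), TMM or total-count size factors, a filter of at least 10 counts in 4 libraries, the 8 compared libraries alone, 2 surrogate variables (sva 3.50.0) and each library left out. Genes of the other lists were compared with edgeR alone. Ratios had 0.5 added to each chain, or 5 as the alternative, and were tested with two-sided exact permutation tests. Tests were checked on simulated data. Coordinates and exon lengths are from the GENCODE annotation of GRCh38, matched by symbol, and the build behind the counts is listed as hg38. The text names the 10 chains, at most 4 called genes per list and comparison by size of change, and the 3 genes most like each called chain, of which 1 is not reported here. The members and lists were chosen with earlier results of these data known.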

Additional observations from a re-analysis of the deposited data

Results flagged for a closer look

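In each of 68 groups of 4 values, the gap of the highest or lowest library to its nearest neighbour was compared with Dixon's 95% critical value, and chance alone flags about 1 group in 20. There were 3 flags. IL6ST in vehicle replicate 16 had 22834 normalized counts, where the other vehicle libraries had 26223 to 26485. IL17RA in the same library had 847 normalized counts, and the other 3 had 900.4 to 907. IL17RC in GSK-J4 replicate 24 had 550.3 normalized counts against 635 to 646 in the other GSK-J4 libraries.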

How the results depend on the processing

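Of 828 log2 changes of chains recomputed under other settings, 770 kept their direction and side of the threshold, 28 lost a call, 7 gained a call and 23 turned sign, of which 0 were called in either fit. Total-count scaling turned IL1RAP after GSK-J4 against vehicle to -0.016, and surrogate variables turned IL1RL1 after belinostat against vehicle to -0.017. The other 21 came from leaving out a library. These gave log2 changes after the pulses of -0.017 to 0.16 for IL1RAP, -0.061 to 0.0049 for IL17RC and -0.0035 to 0.071 for LIFR. For GSK-J4 against vehicle they gave -0.034 to 0.0019 for TNFRSF1A, -0.014 to 0.088 for IL1R1, -0.085 to 0.093 for IL1RAP, -0.73 to 0.13 for IL1RL1, -0.0047 to 0.040 for OSMR and -0.073 to 0.0093 for IL6ST. For IL1RL1 they gave -0.64 to 0.65 for belinostat against vehicle and -0.35 to 1.03 against GSK-J4. Against unstimulated cells they gave -0.070 to 0.013 for IL17RA after belinostat and -0.015 to 0.14 for IL1RAP after GSK-J4. The number of chains called after the pulses was 0 with edgeR and 2 (IL1R1 and OSMR) with only the compared libraries fitted, where it was 1 otherwise, also without each library. After belinostat against vehicle edgeR called 3 (IL1R1, TNFRSF1A and TNFRSF1B), and leaving out a library gave 3 to 5 chains. For belinostat against unstimulated cells it was 1 with only the compared libraries and 1 to 3 without a library. Leaving out a library gave 4 to 6 chains for belinostat against GSK-J4, 2 to 3 for GSK-J4 against unstimulated cells and 0 for GSK-J4 against vehicle in each case. TNFRSF1A and IL1R1 stayed called after belinostat against vehicle in all 14 alternatives. The causes of lost calls were not tested. With the longest coding transcript, a length chosen after seeing the data, levels per kilobase moved by more than 1 SD for 8 of 10 chains. Of 252 recomputed ratio differences, 13 turned sign, of which 0 had an exact permutation p under 0.05 with all libraries, and no test was made with a library left out, where 3 against 4 cannot go below 0.0571. The median change of all genes moved by 0.018 at most from the reported fit. No paired analysis was possible because the groups share no replicate numbers.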
